A study of Homo sapiens with 6 samples.

Results

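Open chromatin was examined at 9 endoderm lineage genes in human pluripotent stem cells. The genes were SOX17, FOXA2, GATA4, GATA6, EOMES, CXCR4, HNF4A, CER1 and AFP, and every ATAC-seq summit inside them or within 20 kb of either gene end was taken. ATAC-seq marks open chromatin by letting the Tn5 transposase cut DNA that is not packed away, and a summit is the point of strongest signal in a called peak. The windows held 225 of the 356720 summits of the series. Grouping summits of different libraries that lay within 250 bp gave 75 endoderm loci of 123131 loci in all. The 9 genes are among 20033 protein-coding genes of the RefSeq table of GRCh38.p14.

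All 6 libraries came from H1, a human embryonic stem cell line, grown in mTeSR1 medium on Matrigel and infected with lentivirus that carried a short hairpin RNA, with puromycin selection. The groups were shHNRNPU #1 and shHNRNPU #2, which are separate hairpins against HNRNPU, and shLUC, a control hairpin, with 2 libraries each. HNRNPU is an abundant nuclear RNA-binding protein, and the series concerns its role and that of the nuclear matrix in these cells. Nothing in the labels says that the repeats were separate cultures, so the spread between them may be technical. The lists carry no read counts, so depth is unknown, the extent of the knockdown is not measured by them, and a missing summit means only that no peak was called. Library lists held 52168 to 63519 summits. Each summit has a score, the −log10 of its peak's q-value in that library, and because scores were not normalised between libraries, strength is given here as the percentile of the score within the library's own list, where 100 is the strongest. Of 11 pluripotency marker genes, 10 had a summit within 2000 bp in all 6 libraries, SOX2 and NANOG among 6 of 7 by a listed start and POU5F1 among 4 of 4 by either gene end. The remaining gene, DNMT3B, had one in some libraries. Since 71.3% of all protein-coding genes with a listed start were open in this way, the count does not by itself identify the cell type.

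Definitive endoderm is the germ layer that gives rise to the gut, liver and pancreas. In human pluripotent stem cells, NODAL or activin signalling through SMAD proteins drives it, and EOMES, a T-box transcription factor, is an early mediator that works ahead of SOX17, FOXA2, GATA4 and GATA6. CER1 is a secreted NODAL and BMP antagonist, CXCR4 is a chemokine receptor used to sort endoderm cells, and HNF4A and AFP belong to the liver and gut programmes that come later. None of these genes defines the pluripotent state. Before differentiation here means H1 cells kept in mTeSR1 medium, and whether the knockdown changed their state was not tested.

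The promoters below show the sequence contrast between starts that were open and one that was not. They run from 250 bases before to 50 bases after the RefSeq start, on the gene's own strand, and a start is called open if a summit lay within 2000 bp of it and closed if none was called there. Capitals mark matches to the short motifs described in the next paragraph. CER1 lies at chr9:14722684-14722983 (minus strand), CXCR4 at chr2:136118100-136118399 (minus strand), EOMES at chr3:27722274-27722573 (minus strand) and AFP at chr4:73435971-73436270 (plus strand), all RefSeq GRCh38.p14. The first 3 were open in all 6 libraries and AFP was closed in all 6.
CER1: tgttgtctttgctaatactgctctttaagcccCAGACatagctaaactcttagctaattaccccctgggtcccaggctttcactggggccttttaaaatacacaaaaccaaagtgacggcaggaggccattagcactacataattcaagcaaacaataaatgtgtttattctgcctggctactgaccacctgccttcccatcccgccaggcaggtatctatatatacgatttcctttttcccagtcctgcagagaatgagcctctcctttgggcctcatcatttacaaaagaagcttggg
CXCR4: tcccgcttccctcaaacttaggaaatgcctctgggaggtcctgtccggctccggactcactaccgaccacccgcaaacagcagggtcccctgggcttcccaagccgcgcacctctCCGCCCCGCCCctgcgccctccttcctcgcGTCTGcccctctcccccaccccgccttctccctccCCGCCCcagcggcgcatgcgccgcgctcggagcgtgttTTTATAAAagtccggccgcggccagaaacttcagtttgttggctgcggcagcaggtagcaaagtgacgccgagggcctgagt
EOMES: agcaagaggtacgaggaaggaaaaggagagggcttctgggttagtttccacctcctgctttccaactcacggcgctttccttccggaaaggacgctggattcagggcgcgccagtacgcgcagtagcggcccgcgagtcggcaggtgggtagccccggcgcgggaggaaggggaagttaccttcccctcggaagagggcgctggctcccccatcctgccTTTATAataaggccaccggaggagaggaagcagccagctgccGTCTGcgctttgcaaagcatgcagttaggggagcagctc
AFP: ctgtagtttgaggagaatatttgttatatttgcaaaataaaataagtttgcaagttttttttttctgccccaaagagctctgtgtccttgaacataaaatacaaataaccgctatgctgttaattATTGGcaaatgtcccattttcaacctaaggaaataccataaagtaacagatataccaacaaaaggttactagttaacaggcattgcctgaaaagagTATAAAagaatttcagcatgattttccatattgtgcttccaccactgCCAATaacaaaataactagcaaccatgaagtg

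Promoters of CXCR4 and EOMES were rich in CpG dinucleotides and those of CER1 and AFP were poor in them. The ratio of observed to expected CpG was 0.864 for CXCR4 with 27 CpGs in 300 bases, 0.744 for EOMES with 21 and 0.824 for GATA6 with 25. It was 0.203 for CER1 with 3 CpGs and 0.123 for AFP with 1. HNF4A has 2 listed starts in this table, at 0.409 and 0.364. Among protein-coding genes with a listed promoter, taking 1 promoter per gene, 91.0% of the 10386 with a ratio of at least 0.6 were open in all 6 libraries, against 27.4% of the 5456 with a lower ratio. Thus EOMES, GATA6 and CXCR4 were open like most CpG-rich promoters, and HNF4A and AFP were closed like 55.3% of the CpG-poor ones. CER1 was the open CpG-poor promoter among the endoderm genes with a listed start, and the mean percentile of its strongest summit was as high as or higher than that of 90.2% of the open CpG-poor promoters.

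**Figure D1:**
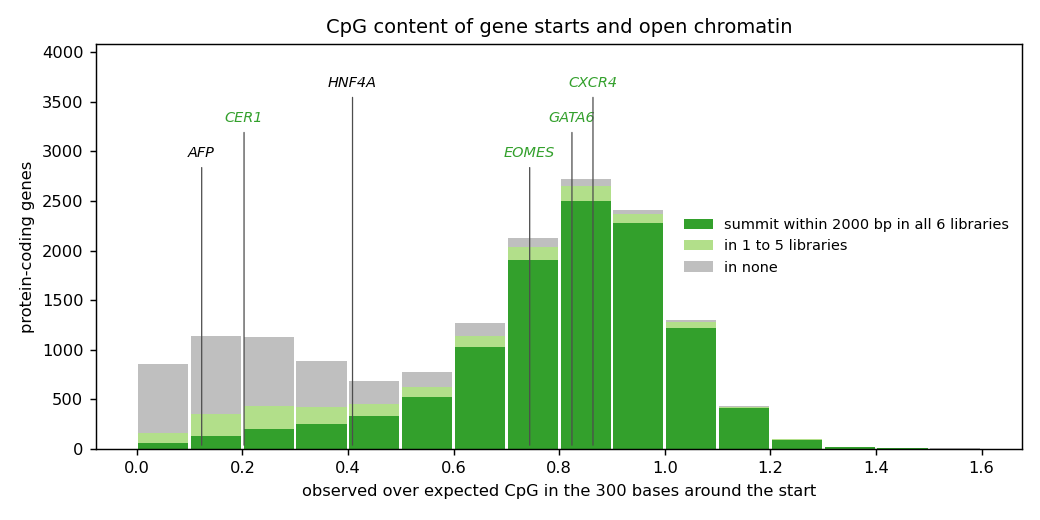
Number of protein-coding genes (vertical axis) by the ratio of observed to expected CpG in the 300 bases around the start (horizontal axis, no unit), coloured by how many libraries had a summit within 2000 bp. Lines mark the endoderm genes with a listed start, with green names for starts open in 6 libraries and black names for closed ones. CER1, at 0.203, sits among genes that were mostly closed.

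Motif letters were searched on both strands of the listed promoters, as a description and not as evidence of binding. The FOXA core, TGTTTAC, which 2.67% of all 15842 promoters held, and the T-box core, TCACACC, held by 3.21%, had no match in any endoderm promoter searched. CAGAC, the SMAD element, occurred once each in CER1, the outermost CXCR4 start, EOMES, GATA6 and the first HNF4A start, and in 44.3% of all promoters. The GATA core, AGATAA, held by 7.66%, matched only at the first HNF4A start. A TATA box, TATAAA, held by 9.75%, was present in AFP, EOMES (on the opposite strand) and the outermost CXCR4 start, which matched it on both strands at overlapping positions. AFP and the middle CXCR4 start held CCAAT 2 times, a box found in 36.4% of promoters, and GATA6 and the first HNF4A start held it once. The SP1/KLF box, GGGCGG, found in 58.3%, matched 3 times at the outermost CXCR4 start, of which 2 share a base, 2 times at the innermost, and once at each HNF4A start.

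Before differentiation, 6 of the 9 endoderm genes had a summit near a start or gene end in all 6 libraries. These were CER1, CXCR4, EOMES and GATA6 by their listed starts and SOX17 and FOXA2 by a gene end, since their starts are not listed in the promoter table used here. By listed start alone, 4 of 6 endoderm genes were open, and of the 15842 protein-coding genes with a listed start 71.3% were. GATA4 had a summit near its lower-coordinate end in 1 library, shHNRNPU #1 repeat 2, at the 5.91 percentile, and none at its upper end. Inner starts of GATA4 were not analysed, so its ends do not show whether every start was closed. A site in its body, 27100 bp from the lower end, had a summit in all 6 libraries. Whether that site lies at an inner start was not tested. HNF4A and AFP had no summit near either end or any listed start in any library. By mean percentile of the strongest summit the 6 genes fell in the order CER1, CXCR4, EOMES, SOX17, GATA6 and FOXA2. Every CER1 value was above every CXCR4 value and those were above all values of the other genes, while from EOMES to FOXA2 each gene overlapped the next over the libraries. With summits kept only at a score of at least 5, 4 of the 9 genes counted as open in all 6, with GATA6 and FOXA2 dropping out. Within 500 bp of a start or gene end 4 of the 9 also did, with SOX17 and FOXA2 dropping out.

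**Figure D2:**
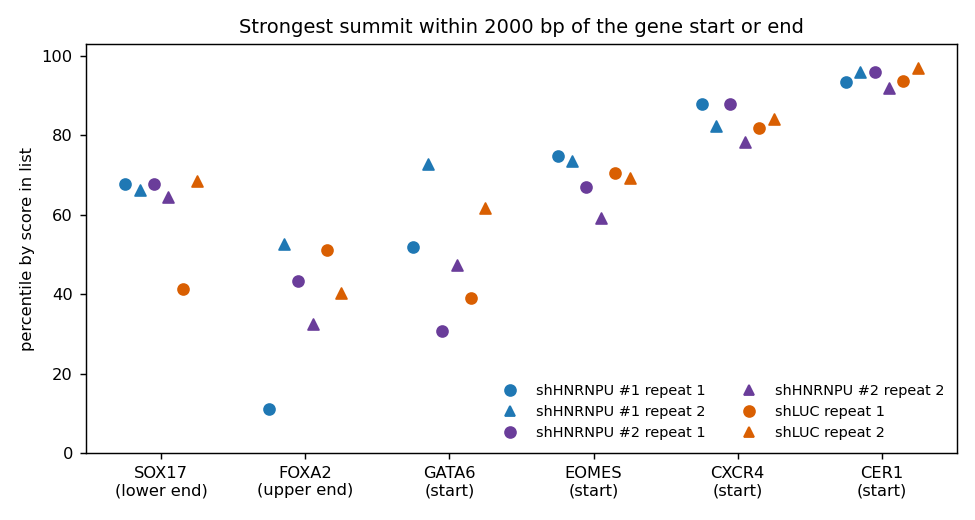
Percentile by score within the library's own list (vertical axis, 0 to 100) of the strongest summit within 2000 bp of the start, or of the named gene end, for the 6 endoderm genes open in all libraries. Each point is a library, and CER1 lies at 92.0 to 97.0 while FOXA2 lies between 11.1 and 52.6.

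Percentiles for a hairpin are given with repeat 1 first. For each locus the exact two-sided permutation test over the 15 ways of choosing 2 of the 6 libraries cannot go below p = 0.133, and no locus can go below 0.538 after Benjamini-Hochberg adjustment over the 25519 loci present in all 6 libraries. Differences at single loci are therefore described by whether the groups overlap.

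EOMES (gene 8320, chr3:27715953-27722713, minus strand) had 11 loci within its window, of which 1 was in all 6 libraries. Its start was covered by neighbouring loci, 240 bp downstream and 74 bp upstream, that share summits, and the stronger of them was at the 74.8 and 73.6 percentile with shHNRNPU #1, 67.1 and 59.2 with shHNRNPU #2, and 70.6 and 69.2 with shLUC. The EOMES start was open in every library and the groups overlapped.

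The locus found in all 6 libraries lay 6330 bp upstream of the EOMES start, at position 27728653, with no annotated gene over it. Its percentiles were 82.9 and 81.1 with shHNRNPU #1, 79.4 and 87.5 with shHNRNPU #2, and 63.3 and 67.2 with shLUC. All 4 shHNRNPU libraries were above both shLUC libraries. The means were 82.7 ± 3.52 (SD, n = 4) and 65.2 ± 2.74 (SD, n = 2), a difference of 17.5 percentile points, with the smallest p the exact permutation test allows, 0.133, and an adjusted p of 0.538. The scores themselves were 16.1 to 28.7 with shHNRNPU against 10.7 and 11.2 with shLUC. Of all loci in 6 libraries, 10.9% were higher with shHNRNPU without overlap and 13.9% were lower.

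Another EOMES locus was called in all 4 shHNRNPU libraries and in neither shLUC library. It lay 10060 bp downstream of the start and 3690 bp past the gene, over the pseudogene KIAA1143P2 and near an end of the lncRNA LINC02084. Its percentiles were 46.9 and 50.5 with shHNRNPU #1 and 23.4 and 77.5 with shHNRNPU #2, and the nearest shLUC summit was 3178 bp away. Loci of this kind are called gained here, and 3.59% of all loci found in 4 shHNRNPU libraries were gained. Both differing EOMES loci were thus outside the gene, while at the start itself the groups overlapped.

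CER1 (gene 9350, chr9:14717326-14722733, minus strand) had a single locus, 118 bp upstream of its start, and it was the strongest of all 75 endoderm loci by mean percentile. Its percentiles were 93.5 and 96.0 with shHNRNPU #1, 96.1 and 92.0 with shHNRNPU #2, and 93.7 and 97.0 with shLUC, with the summit positions within 75 bp of each other. The groups overlapped, with means of 94.4 ± 1.97 (SD, n = 4) and 95.4 ± 2.36 (SD, n = 2) and p = 0.533 in the exact permutation test. No other summit was called within 20 kb of CER1 in any library. The next locus, 23935 bp below the gene and so outside the window, was in all 6 libraries. It was at 74.5 and 84.5 with shHNRNPU #1, 76.7 and 74.6 with shHNRNPU #2, and 53.7 and 72.7 with shLUC. The shHNRNPU values there were above both shLUC values, as at 10.9% of all loci in 6 libraries.

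CXCR4 (gene 7852, chr2:136114349-136118149, minus strand) had 3 loci, all near its promoter. The strongest lay 280 bp upstream of the outermost start, at the 87.9 and 82.3 percentile with shHNRNPU #1, 87.9 and 78.4 with shHNRNPU #2, and 81.9 and 84.1 with shLUC. Those groups overlapped, with means of 84.1 ± 4.65 (SD, n = 4) and 83.0 ± 1.59 (SD, n = 2) and p = 0.667 in the exact permutation test. A weaker site 1281 bp upstream was also in all 6 libraries, between 3.64 and 48.3. The third, inside the gene, was called with shHNRNPU #1, at 29.4 and 23.5, and with neither of the other hairpins.

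SOX17 (gene 64321, chr8:54457935-54460892), the HMG-box factor that marks definitive endoderm, had 8 loci, of which 2 were in all 6 libraries. The site inside the gene, 1703 bp from its lower end, was at the 57.2 and 59.1 percentile with shHNRNPU #1, 52.5 and 64.6 with shHNRNPU #2, and 41.2 and 68.6 with shLUC. The shLUC values lay on both sides of the shHNRNPU values. Nearer the lower end, at 231 bp, a site was at 67.7, 66.4, 67.9 and 48.2 with shHNRNPU, at 35.7 in shLUC repeat 1 and not called in shLUC repeat 2. All 4 shHNRNPU values at that site were above the shLUC value that exists, but the second shLUC library had a summit of 68.6 at the neighbouring site. The other site in all 6 libraries lay 5785 bp beyond the upper end, within LOC100129098, at 46.2 to 73.5 with overlapping groups.

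FOXA2 (gene 3170, chr20:22580998-22585490), a forkhead factor that opens chromatin for later endoderm regulators, had 13 loci, and 7 of them were called in 1 library only. The site 617 bp inside its upper end was in all 6 libraries, at the 9.55 and 52.6 percentile with shHNRNPU #1, 43.4 and 31.1 with shHNRNPU #2, and 51.2 and 40.5 with shLUC. It varied more between the repeats of shHNRNPU #1 than between the groups. The other site in all 6 lay within the neighbouring lncRNA LINC00261, 12613 bp below the gene, at 19.5 to 61.4. A locus 1532 bp beyond the upper end, between FOXA2 and the lncRNA LNCNEF, was gained, at 11.1 and 37.1 with shHNRNPU #1 and 25.1 and 32.6 with shHNRNPU #2. Its nearest shLUC summit was 2135 bp away, at the site inside the gene.

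GATA4 (gene 2626, chr8:11676935-11760002), a zinc-finger factor of endoderm and heart, was the endoderm gene with the most loci, 23, and its gene body of 83068 bp also makes its window the widest. As many summits as at GATA4, or fewer, were found at 98.6% of protein-coding genes. The sites in the body were mostly weak, and 5 of the 23 loci were in all 6 libraries. The strongest site in the body lay 59592 bp from the lower end, at the 75.4 and 84.0 percentile with shHNRNPU #1, 79.0 and 79.7 with shHNRNPU #2, and 77.9 and 82.2 with shLUC, with overlapping groups. A stronger one in the window, 9676 bp beyond the gene and near an end of NEIL2, was at 87.1 to 95.8.

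Within the GATA4 body, 33310 bp from the lower end, a site in all 6 libraries was at the 47.8 and 65.7 percentile with shHNRNPU #1, 68.4 and 45.8 with shHNRNPU #2, and 27.9 and 40.0 with shLUC. Every shHNRNPU library was above both shLUC libraries. The means were 56.9 ± 11.7 (SD, n = 4) and 33.9 ± 8.60 (SD, n = 2), a difference of 22.98 points, with p = 0.133 in the exact permutation test and 0.538 after adjustment. Gained loci lay 2573 bp and 9060 bp from the lower end. The first was at 11.8 and 58.5 with shHNRNPU #1 and 41.4 and 27.0 with shHNRNPU #2, with the nearest shLUC summit 1229 bp away. The second was at 11.4 and 41.7, then 5.08 and 3.99, with the nearest shLUC summit 4864 bp away. These GATA4 sites lay between 3.99 and 68.4 in the shHNRNPU lists, and the gene ends stayed without a summit in all libraries but 1.

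GATA6 (gene 2627, chr18:22169589-22202528, plus strand), the related zinc-finger factor, had 5 loci, and only the one at its start was in all 6 libraries. It lay 329 bp upstream, also near an end of GATA6-AS1, at the 52.0 and 72.7 percentile with shHNRNPU #1, 30.9 and 47.4 with shHNRNPU #2, and 39.1 and 61.7 with shLUC. Repeats of one hairpin differed by more than the groups did, with means of 50.7 ± 17.2 (SD, n = 4) and 50.4 ± 16.01 (SD, n = 2). The remaining GATA6 loci lay in the body and 3 of them were called in a single library.

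HNF4A (gene 3172, chr20:44355699-44434596, plus strand), a nuclear receptor of liver and gut, had 6 loci and none near its listed starts. Its 1 site in all 6 libraries lay inside the gene, 12582 bp upstream of the second listed start and also within HNF4A-AS1, so the gene had open chromatin in these cells although its starts were closed. That site was at the 61.1 and 53.4 percentile with shHNRNPU #1, 85.2 and 69.1 with shHNRNPU #2, and 84.8 and 89.1 with shLUC. The highest shHNRNPU value was just above the lower shLUC value, so the groups overlapped. The difference in means was -19.7 points, from 67.2 ± 13.6 (SD, n = 4) against 86.9 ± 3.05 (SD, n = 2), with p = 0.267 in the exact permutation test and 0.661 after adjustment.

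The locus called lost, with a summit in both shLUC libraries and in no shHNRNPU library, was also in the HNF4A window, 14762 bp beyond the gene and inside the lncRNA LINC01430. It was weak, at the 31.1 and 11.04 percentile, and the nearest shHNRNPU summit was 26485 bp away. Among all loci found in both shLUC libraries, 5.68% were lost. At the far edge of the window, 19396 bp below HNF4A and near R3HDML, a locus was at 48.3, 72.4, 3.34 and 24.2 with shHNRNPU and 20.8 in shLUC repeat 2. The first locus past the 20 kb limit at any endoderm gene lay 20078 bp below FOXA2, at 29.9 in shHNRNPU #1 repeat 2 and 31.3 in shLUC repeat 2.

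AFP (gene 174, chr4:73436221-73456174, plus strand), which encodes the fetal plasma protein alpha-fetoprotein, had 5 loci and none in all 6 libraries. Its summits lay in the later part of the gene, apart from single weak summits elsewhere. The locus 14312 bp into the gene was gained, at the 41.3 and 39.3 percentile with shHNRNPU #1 and 4.65 and 41.8 with shHNRNPU #2. A shLUC summit lay 1055 bp from it, in the next locus, 15367 bp into the gene. That next locus was at 66.5 and 49.3 with shLUC and 63.0 and 38.4 with shHNRNPU #2, and was not called with shHNRNPU #1. A further AFP locus, 17045 bp into the gene, was at 49.2 and 56.3 with shLUC, 20.5 and 40.5 with shHNRNPU #1 and 16.9 in shHNRNPU #2 repeat 1, and was not called in shHNRNPU #2 repeat 2. The 3 shHNRNPU values there were below both shLUC values, so the AFP loci did not move in 1 direction.

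**Figure D3:**
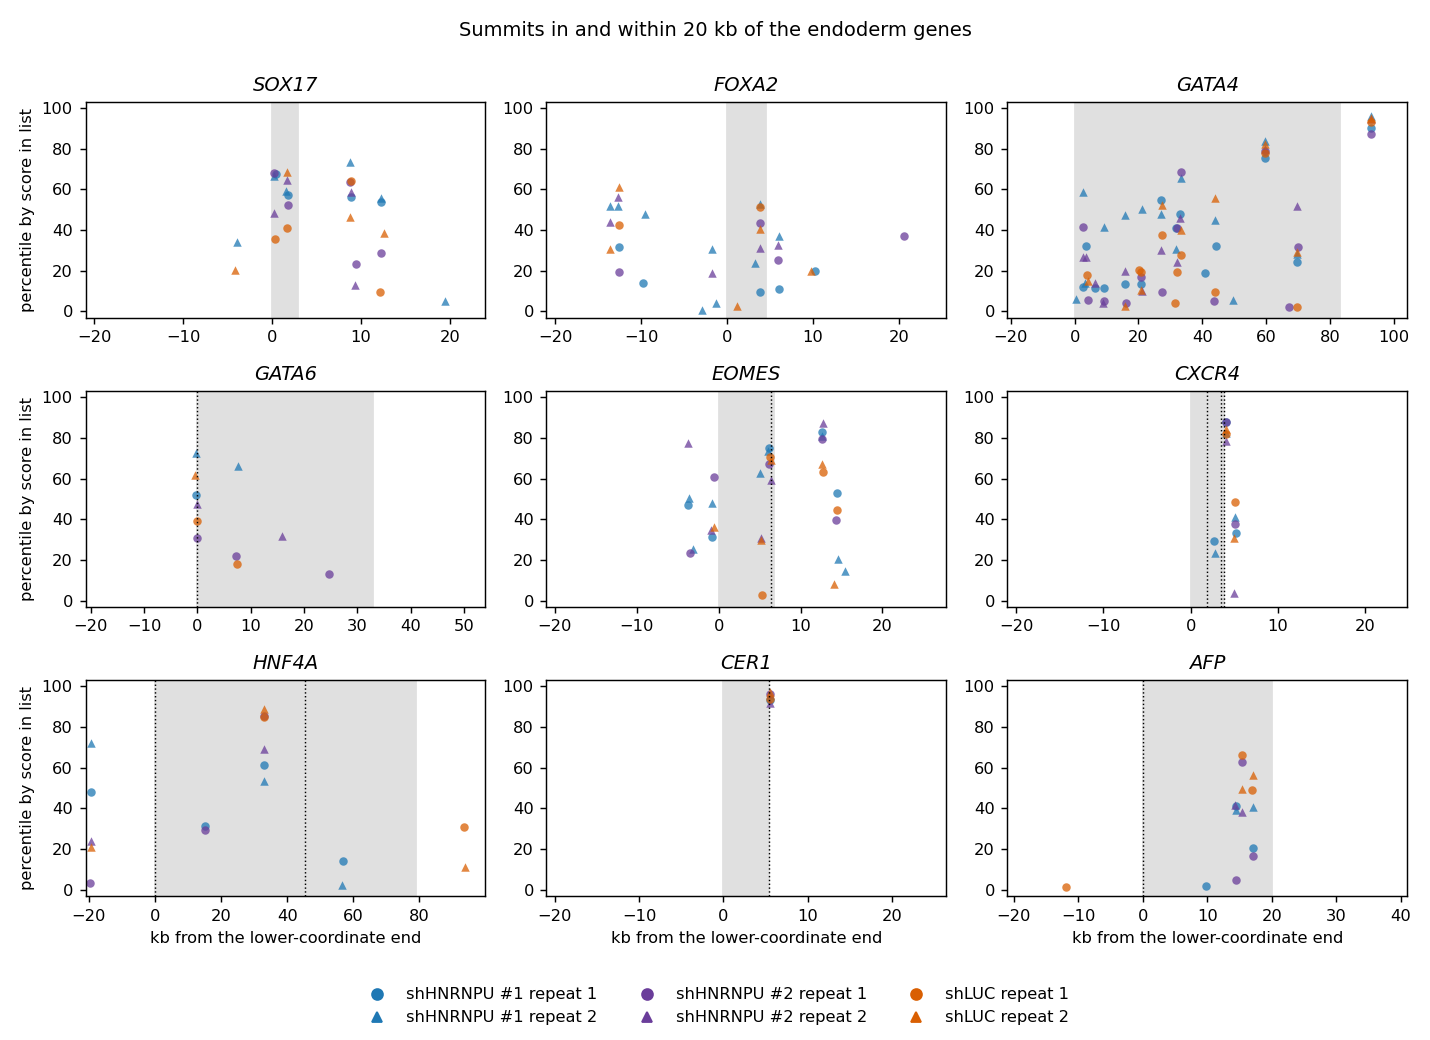
Every summit inside or within 20 kb of the 9 endoderm genes, by distance from the lower-coordinate gene end in kb (horizontal axis) and percentile by score in its library (vertical axis). Grey marks the gene body, dotted lines mark listed starts, and points are summits coloured by hairpin and shaped by repeat. CER1 and CXCR4 have their summits gathered at the start, whereas GATA4 has weak summits spread along its body.

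Knockdown and control were next compared over the 9 genes together. More of the summits lay at endoderm genes in each shHNRNPU library than in either shLUC library. There were 40 and 48 endoderm summits with shHNRNPU #1, 39 and 35 with shHNRNPU #2, and 31 and 32 with shLUC. Per 10000 summits of the library these were 6.77, 7.56, 6.68 and 6.71 with shHNRNPU, a mean of 6.93 ± 0.421 (SD, n = 4), against 4.98 and 5.21 with shLUC, a mean of 5.10 ± 0.162 (SD, n = 2). The groups did not overlap, and the ratio of the means was 1.36. No test is given for this sum, because the genes were chosen with results of these data known.

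The same measure over all protein-coding genes also separated the groups. Of 10000 summits, 7387 ± 100.1 (SD, n = 4) lay in or within 20 kb of a protein-coding gene with shHNRNPU and 7135 ± 57.5 (SD, n = 2) with shLUC, a ratio of 1.04. Most summits lay there in both groups, so this ratio had little room to rise. Its size is therefore not comparable with the ratio for the 9 genes. GATA4 gave the largest counts of any endoderm gene, 14, 14, 13 and 12 with shHNRNPU and 11 and 9 with shLUC. Leaving GATA4 out, the groups still did not overlap, at 4.65 ± 0.466 (SD, n = 4) and 3.48 ± 0.376 (SD, n = 2) per 10000, although the difference fell from 1.83 to 1.17.

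Gene by gene, GATA4 was the only one of the 9 whose counts did not overlap between the groups, and none had fewer summits without overlap. Among the 18729 protein-coding genes with a summit, 3.55% had more and 3.92% had fewer with shHNRNPU in this sense. EOMES had 5, 8, 5 and 5 summits with shHNRNPU and 4 and 5 with shLUC. FOXA2 had 5, 9, 4 and 5 against 2 and 5, and SOX17 had 4, 6, 5 and 4 against 4 and 4. CXCR4, HNF4A, GATA6 and AFP had between 1 and 4 in every library, and CER1 had 1 in each. The mean was higher with shHNRNPU for 7 of the 9 genes and equal for CER1 and AFP.

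**Figure D4:**
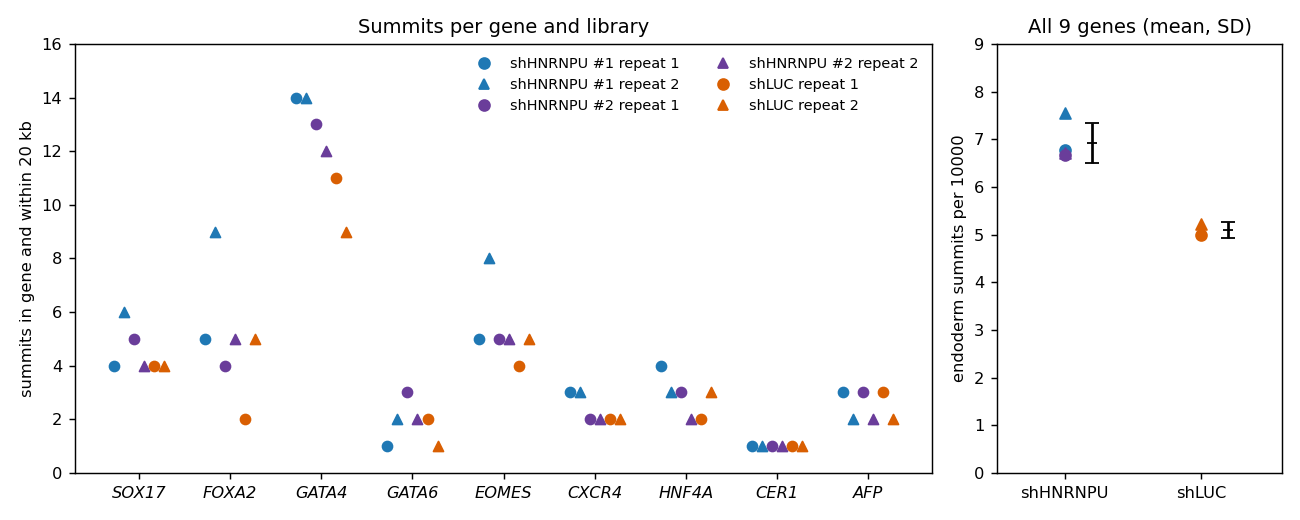
Left, number of summits inside or within 20 kb of each endoderm gene (vertical axis) in each library. Right, endoderm summits per 10000 summits of the library, with points for libraries and bars for mean and SD (n = 4 shHNRNPU, n = 2 shLUC). The shHNRNPU libraries lie at 6.68 to 7.56 and the shLUC libraries at 4.98 and 5.21.

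In all, 5 of the 25 endoderm loci found in 4 shHNRNPU libraries were gained, at FOXA2, GATA4 (2 loci), EOMES and AFP, and 1 of the 22 loci found in both shLUC libraries was lost, at HNF4A. Near protein-coding genes in general, 3.33% of such loci were gained and 4.56% were lost. Scores at the gained loci ran from 2.31 to 18.6, and at each of them at least 1 library had a score under 5. When summits with a score under 5 were left out, 0 of 11 endoderm loci were gained, where 3.28% of all loci were, and 0 of 15 were lost, where 4.94% were. With a match distance of 100 bp, 1 of 8 was gained, at GATA4, where 5.55% of all loci were. With lists cut to one size, 2 of 17 were gained, at EOMES and GATA4, where 3.83% were. Without shLUC repeat 1 the counts were 8 gained and 5 lost, where 9.44% and 18.8% of all loci were called, and without shLUC repeat 2 they were 7 and 3, where 9.62% and 18.9% were.

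By hairpin, 9 of 33 endoderm loci found in both shHNRNPU #1 libraries were absent from both shLUC libraries, where 10.5% of all such loci were. For shHNRNPU #2 the count was 6 of 29, where 7.79% of all loci were. Endoderm loci in both shLUC libraries but in neither library of the hairpin numbered 3 of 22 for shHNRNPU #1 and 1 of 22 for shHNRNPU #2, where 10.4% and 11.9% of all loci were. Both hairpins thus had more gained than lost endoderm loci. These counts share the shLUC libraries and are not independent of each other.

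**Figure D5:**
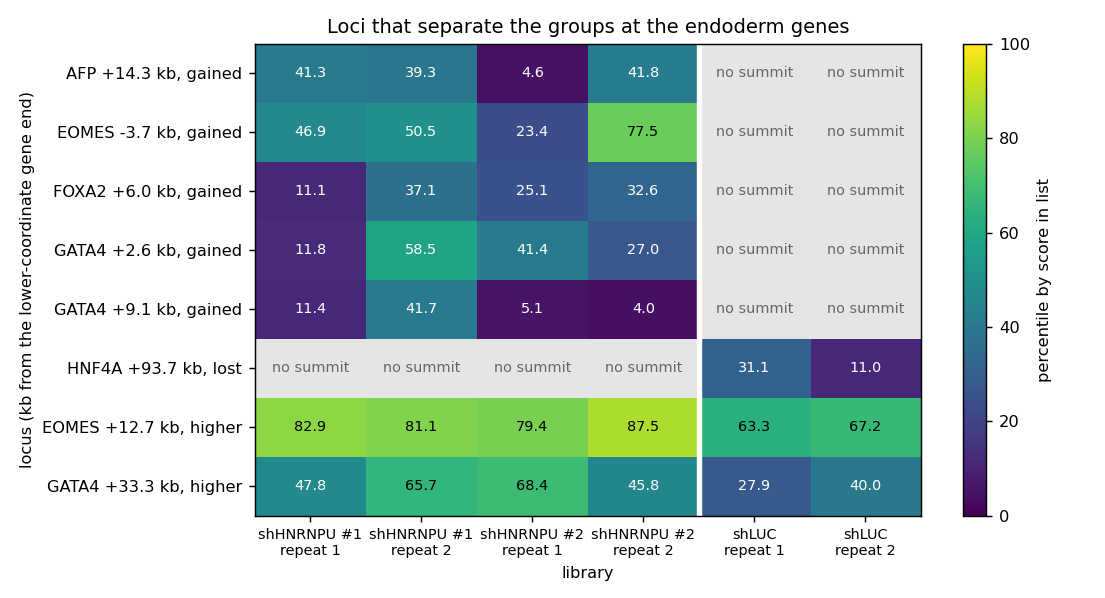
Percentile by score (colour, and the number in each cell) in each library at the 8 endoderm loci that separated the groups, with grey where no summit was called. The 5 gained loci have no shLUC summit, the HNF4A locus has no shHNRNPU summit, and the lower rows hold the EOMES and GATA4 loci that were higher with shHNRNPU in all libraries.

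At the 15 endoderm loci open in all 6 libraries, the groups overlapped in mean rank. The mean percentile over these loci was 57.2 and 65.7 with shHNRNPU #1, 58.2 and 59.4 with shHNRNPU #2, and 56.6 and 63.1 with shLUC. The group means were 60.1 ± 3.83 (SD, n = 4) and 59.8 ± 4.57 (SD, n = 2), a difference of 0.267. Over the same 15 loci it was -1.59 without shHNRNPU #1 repeat 2, -2.96 without shLUC repeat 1 and 3.496 without shLUC repeat 2, so it has no stable sign. Of the 15 loci, 2 were higher without overlap, the EOMES and GATA4 loci described above, and 0 were lower, where 10.9% and 13.9% of all loci in 6 libraries were. The count of higher loci is thus near the share over all loci. With loci grouped anew without shLUC repeat 1, 4 of 17 endoderm loci were higher and 4 were lower, where 22.4% and 24.9% of all loci were. Without shLUC repeat 2, 6 of 18 were higher and 1 was lower, where 24.4% and 26.7% were. Endoderm sites open in all libraries had a median of 57.2 for their mean percentile, against 73.7 over all loci in 6 libraries. Among the lists compared below, it was 58.5 for the neuroectoderm genes and 65.9 for the later genes, so a low median was not particular to endoderm. For the further early endoderm genes it was 70.4, for the mesoderm genes 78.4 and for the pluripotency markers 79.6.

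About as many endoderm loci as loci in general were shared by all libraries. Of the 75, 15 were in 6 libraries and 25 in 1, or 33.3%, against 38.0% of all loci in 1 and 20.7% in 6. An uneven share of the endoderm loci seen in 1 library came from shHNRNPU #1 repeat 2, which held 10 of the 25. The others held 4, 4, 1, 2 and 4. That library also had the longest list, 63519 summits, and the groups stayed apart in endoderm summits per 10000 without it.

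Other genes of the endoderm programme were described by the same counts, from lists chosen with earlier results known. Of 12 further early endoderm genes, 8 had a start or gene end with a summit in all 6 libraries, namely GSC, MIXL1, HHEX, LHX1, FOXA3, PRDM1, KIT and OTX2, and 7 of these were among the 8 with a listed start. FOXA1, FGF17 and SOX7 were among those with one in some libraries. Of 10 later liver, pancreas and gut genes, 4 had one in all 6 libraries, ONECUT1, APOA1, APOB and PROX1. PDX1 and CDX2 were among those with one in some libraries, and TTR, ALB and SERPINA1 had one in none. For genes with no listed start, such as APOA1 and APOB, either gene end was counted. All 9 mesoderm genes and 7 of 9 neuroectoderm genes were open in 6 libraries. By listed start alone, 8 of 8 mesoderm, 5 of 7 neuroectoderm and 1 of 4 later genes were. Over all protein-coding genes with a listed start the share was 71.3%.

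Summits at the further early endoderm genes were also more frequent with shHNRNPU, at 9.60 ± 0.569 (SD, n = 4) per 10000 against 6.88 ± 0.637 (SD, n = 2), a ratio of 1.39 without overlap. For the later genes the ratio was 1.13 and for the mesoderm genes 1.16, both without overlap. It was 1.29 for the neuroectoderm genes, also without overlap, so that a higher rate was not particular to endoderm. The pluripotency markers gave 1.02 with overlapping groups. Gained loci numbered 2 of 21 at the further early endoderm genes, at FOXA1 and SOX7, 0 of 16 at the later genes, 0 of 18 at the mesoderm genes, 3 of 30 at the neuroectoderm genes and 1 of 29 at the pluripotency markers, where 3.59% of all loci were gained. Lost loci numbered 0 of 25 at the further early endoderm genes and 0 of 22 at the later genes, where 5.68% of all loci were lost. They numbered 0 of 19 at the mesoderm genes, 0 of 35 at the neuroectoderm genes and 3 of 40 at the pluripotency markers. Whether the lists differ from each other was not tested.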

How the data were processed

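The 6 ATAC-seq libraries of H1 cells were grouped by the sample titles. Per the labels, the submitters' processing notes name cutadapt, Bowtie2, SAMtools, MACS2, deepTools and the build hg38, without parameters. For every library the authors deposited its summits with a score, which from the values is the −log10 of the q-value in that library. Scores were not normalised between libraries, so each was ranked within its own list. The article given with the series describes other libraries and served for style only.

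Summits were grouped from the highest percentile downwards, absorbing summits within 250 bp, and presence in a library meant a summit no farther than 250 bp from the centre. Gene positions and promoter sequences came from RefSeq tables of GRCh38.p14. Promoters were listed for 6 of the 9 endoderm genes. For SOX17, FOXA2 and GATA4 either gene end was used, and inner starts were not analysed here. All 9 genes are named, with every called locus, the strongest locus and the one nearest the start. The endoderm genes, lists and motifs were chosen with earlier results of these data known. Single loci were compared with the exact two-sided permutation test over 15 assignments. Grouping was checked on simulated summits at widely spaced sites, so crowded or split sites were not covered. The permutation test was checked on simulated percentiles. Other settings tried were a minimum score of 5, equal list sizes, match distances of 100 and 500 bp, windows of 10 and 50 kb, a start distance of 500 bp and leaving out each library. Absence judged within 1000 bp and leaving out GATA4 were added after seeing the data. TDGF1, planned as a marker, was not analysed here. Some genes of the compared lists enter the counts and are not reported here by name. Python 3.11.15, numpy 2.4.6, pandas 2.3.3, scipy 1.17.1 and matplotlib 3.10.9 were used.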

Additional observations from a re-analysis of the deposited data

Results flagged for a closer look

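In 36 sets of 4 shHNRNPU values in which a library could stand apart, 4 had such a library, where 1 in 20 is given by chance, or 1.8. The sets are not independent, since the endoderm sum includes the EOMES summits, and summit counts can tie. No conclusion is therefore drawn from 4 against 1.8. Endoderm summits per 10000 were 7.56 in shHNRNPU #1 repeat 2 and 6.68 to 6.77 in the other shHNRNPU libraries. The same library had 8 summits at EOMES, where the other 3 had 5 each. At the gained AFP locus, 14312 bp into the gene, shHNRNPU #2 repeat 1 was at the 4.65 percentile and the others at 39.3 to 41.8. At the SOX17 site 231 bp from the lower end, shHNRNPU #2 repeat 2 was at 48.2 and the others at 66.4 to 67.9. In each case the cause was not tested.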

How the results depend on the processing

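The difference in endoderm summits per 10000, 1.83, was 1.62 to 1.94 when each library was left out in turn and 1.17 without GATA4. Calls at weak loci depended on the processing. With a score of at least 5, 0 loci were gained and 0 lost. Of the 8 endoderm loci then in all libraries, 1 was higher and 1 lower without overlap, where 12.5% and 13% of all loci were. With lists of one size, 2 of 17 were gained and 0 of 17 lost, where 3.83% and 4.96% of all loci were. With a match distance of 100 bp, 1 of 8 was gained and 0 of 17 lost, where 5.55% and 8.46% of all loci were. At that distance 0 of 7 were higher and 0 lower, where 8.68% and 17.2% were. The difference in mean percentile was then -3.76 instead of 0.267. This difference was 2.21 with the score minimum and 3.11 with lists of one size. A 500 bp distance gave 0.743, a 10 kb window 1.15 and a 50 kb window 2.29. A 10 kb window gave 0 of 20 lost, where 5.68% of all loci were. A 50 kb window gave 5 of 22 higher and 0 lower, where 10.9% and 13.9% of all loci were. Loci were grouped anew when each library was left out. Without a shHNRNPU library, 5 or 6 of 24 to 29 were gained, where 4.84 to 5.8% of all loci were. The lost locus was 1 of 21 or 22, where 7.05 to 8.18% were. Of 15 or 16 loci in all libraries, 2 were higher and 0 or 1 lower, where 12.6 to 16.7% and 16.5 to 18.7% were. Without a shLUC library, 7 or 8 of 25 were gained, where 9.44 to 9.62% were. There 3 or 5 of 32 were lost, where 18.8 to 18.9% were. Then 4 or 6 of 17 or 18 were higher and 1 or 4 lower, where 22.4 to 24.4% and 24.9 to 26.7% were. The mean percentile difference ran from -1.24 to 5.12. It was negative without shHNRNPU #1 repeat 2 (-1.24), shHNRNPU #2 repeat 2 (-1.20) or shLUC repeat 1 (-0.579). The causes were not tested. Of 84 recomputed values, 58 moved by less than the spread between libraries or, for counts, by at most 1.5 times, 22 moved by more and 4 changed sign. The 4 open gene starts with the score minimum or within 500 bp, against 6, are among the 58.

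With the replicate block the differences stayed 1.83 and 0.267, since each group holds both repeats equally. Repeat numbers did not pair the libraries, with correlations of -0.0438 to 0.00125 between groups. Depth is unknown, so a missing summit is no measure of closed chromatin.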
